A study of Mus musculus with 49 samples.

Results

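Diploid mouse embryonic stem (ES) cells in 2i, a medium whose inhibitors hold the cells in an undifferentiated state, were described in G1, the phase between the end of mitosis and the start of DNA replication. The members are the cells of the diploid 2i table that passed the authors' quality control and that the authors placed in their group G1, which gave 404 of 1992 passing 2i cells and of 4098 passing cells in the whole series. The series measured contacts between chromosome segments by Hi-C in single cells through the cell cycle. All 404 cells came from 1 line, an F1 hybrid of 129/SV-Jae and castaneus mice, grown without feeder cells and fixed with formaldehyde. They fall into conditions that the table names. 1CD_G1 is a sorting gate for G1, drawn per the protocols on Hoechst (DNA content) and Geminin, a protein that is low in G1 and high from S phase to mitosis, and it gave 221 cells. NoSort, whose name says that cells were not sorted, gave 54 cells. 1CDU, a name the labels do not explain, gave 116 cells. The remaining 13 cells came from the gates for early S, mid S and late S/G2 (1CD_eS, 1CD_mS and 1CD_lS_G2). A library is a GEO sample, named here by its number, and no label states whether each library had a culture of its own, so a p-value covers no more than the differences among these libraries, which may be technical.

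Hi-C joins DNA ends that lie close together in the nucleus and counts the joined pairs as contacts. On a condensed mitotic chromosome, contacts gather at an intermediate distance of several megabases, and domains and compartments are nearly gone. As a cell enters G1 the chromosome decondenses, topologically associating domains form again between insulated borders, and active (A) and inactive (B) chromatin separate into compartments, in which segments of one kind contact each other more than segments of the other kind. Chromosomes just out of mitosis also lie with centromeres to one side and telomeres to the other, the arrangement known as Rabl, and mix little with their neighbours.

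The 404 cells held 20242 to 422541 contacts each, with a median of 180336, and came from 18 libraries, of which 10 held at least 10 G1 cells (384 cells). In the list that pairs cells with samples, no index pair occurred more than once within a sequencing lane (0 repeats among 2996 cells in 17 lanes), and no G1 cell had the same values as another (0 of 404). Each lane held a single library and each library with 10 or more G1 cells a single condition, so condition, library and lane cannot be told apart. The tables hold no expression values, so the G1 label was checked against the gates, which do not use contacts.

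Most G1-gate cells were in the authors' G1 group and few cells of the later gates were. Of 280 passing cells sorted in the G1 gate, 221 were G1 (78.9%, exact Clopper-Pearson 95% interval 73.7% to 83.6%), with 115 of 141 in library 19 and 102 of 134 in library 20. In 1CDU the share was 28.9% (116 of 401, interval 24.5% to 33.6%) and ran from 26% in library 11 to 30.9% in library 2_14. In NoSort it was 12.9% (54 of 420, interval 9.81% to 16.4%). The gates for early S, mid S and late S/G2 together gave 13 of 891 cells (1.46%, interval 0.779% to 2.48%). The G1 gate thus supplied 54.7% of all G1 cells, and pooled values over cells weigh libraries 19 and 20 most.

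The other 59 cells of the G1 gate were 53 early-S and 6 late-S/G2 cells by their contacts. Of those 53, 43 lay among the first 220 of 882 early-S cells in the authors' order, at a median rank of 98. Their median short-range share was 65.4% and their median replication score 1.08, against 1.19 over all early-S cells. Most of the disagreement between gate and group therefore lay among the first 220 early-S cells. Short-range shares of the 53 cells ran from 62.2% to 74.7%.

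The share of contacts in the authors' mitotic band and the share in their near band, here called the mitotic-band share and the short-range share, separated the group from its neighbours. The members were selected on these measured shares, so the values describe the selection and are not tested. Mitotic-band shares of G1 cells ran from 11.9% to 31.5% (median 15.6%), and the lowest post-M cell lay at 31.6%, so a line between 31.48% and 31.64% separates the 29 post-M cells from G1. Short-range shares of G1 cells ran from 37.8% to 65.3% (median 57.7%) and those of early-S cells began at 62.2%. In the zone of overlap, from 62.24% to 65.29%, lay 37 G1 and 96 early-S cells. These cells had the same median replication score, 1.08 on both sides, while the far contacts of the G1 cells lay closer together, at a median of 26.8 Mb against 30.4 Mb. The short-range share alone therefore did not set the border with early S, and the rest of the authors' rule is not given in the sources used here.

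**Figure D1:**
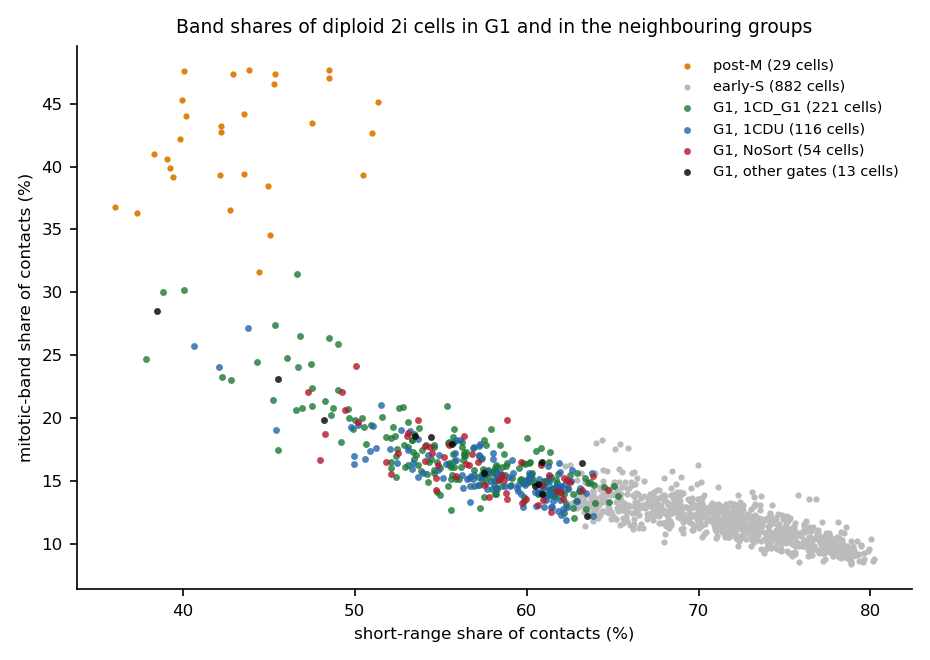
Mitotic-band share against short-range share of contacts, both in percent, with 1 point per cell for post-M, G1 (coloured by condition) and early-S cells of the diploid 2i table. G1 cells lie below 31.48% on the vertical axis and between 37.83% and 65.29% on the horizontal axis, and they meet early-S cells from 62.24%.

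Within G1, the place of a cell in the authors' order could be recomputed from a pair of features. The sum of the standardized short-range share and the standardized distance of far contacts put 404 of 404 cells at the place the authors gave them. The short-range share alone put 6 cells, and the far distance alone 2 cells, at their place, with Spearman's rho of 0.79 and 0.87 to the order. The course of these features along the order is therefore fixed by its construction. The mitotic-band share did not enter the sum, and its rho to the order was 0.89 in size (falling). It comes from the same contacts, and within libraries it fell with both parts of the sum. The median rho was -0.76 with the short-range share and -0.77 with far distance. Its fall along the order is therefore no separate result.

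Features of a single G1 nucleus varied widely around their means. The distance of far contacts averaged 26.6 Mb with an SD of 5.38 Mb over cells and ran from 13.7 to 40.6 Mb. The share of contacts between different chromosomes was 5.75% ± 2.32 (SD over 404 cells), from 1.97% to 14.7%. The G1 nucleus with the highest share had 7.44 times the share of the lowest. The alignment score, deposited as an alignment between chromosomes, averaged 0.277 ± 0.116 and ran from -0.00261 to 0.557.

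The compartment score within chromosomes (cis) was 0.336 ± 0.0715 and stayed above 0 in all 404 cells. Between chromosomes (trans) it was 0.208 ± 0.103, and 8 cells were not above 0. The insulation score, which describes how sharply domain borders separate contacts, was 2.46 ± 0.128, with a 5th to 95th percentile range of 2.25 to 2.64. The scales of these scores are not stated, so they are compared between cells of this table only.

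Contact enrichment at loops was above 0 on the log2 scale in nearly every G1 cell. For the class the authors name LL it was 1.00 ± 0.45 and above 0 in 396 of 404 cells, and for the class EE it was 0.73 ± 0.38 and above 0 in 392. The level and the spread moved with depth. Mean EE enrichment was 0.78 in the 202 cells with fewer contacts and 0.68 in the 202 with more. For LL the means were 1.08 and 0.92. Contacts per cell had a negative rho with both classes in 6 of 6 libraries (median -0.20 for EE and -0.17 for LL). Among the 202 cells with fewer contacts the SD was 0.46 for EE and 0.53 for LL, and among the 202 cells with more contacts it was 0.28 and 0.34. The trans compartment score also had a larger SD in the shallower cells, 0.113 against 0.0916, whereas insulation (0.114 against 0.139), the cis compartment score (0.0683 against 0.0743) and the far distance (5.16 against 5.41 Mb) had a larger SD in the deeper cells. How much of the loop spread is counting error was not tested.

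The replication score, which by its name follows DNA replication and has its lowest cell of the table at 1, was low and narrow in G1. It averaged 1.08 ± 0.0396, and the cell at 1 was itself a G1 cell. Only 13 of 404 G1 cells were above the early-S median of 1.186. Of these, 8 were in library 13 (8 of its 39 G1 cells) and 0 among the 217 G1 cells of libraries 19 and 20, which allows up to 1.38% there.

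The largest deviation in chromosome coverage of a cell, a score that by its name picks out aberrant chromosome coverage, had a median of 0.336 in G1 and ran from 0.114 to 0.998. It was under 0.25 in 156 cells, between 0.25 and 0.45 in 121 and at 0.45 or more in 127. The mean did not differ by more than the cells' own spread between libraries (0.301 in library 2_14 to 0.423 in library 13, SD within libraries 0.216).

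For folding features the spread lay mostly between cells of the same library. Over 384 cells in 10 libraries, the share of the variance between libraries was 0.657% for the short-range share, 2.03% for the cis compartment score, 3.49% for the mitotic-band share, 4.14% for insulation, 4.95% for the trans compartment score and 8.26% for the far distance. It was 12.2% for contacts between chromosomes and 12.8% for alignment. Loop enrichment gave 2.32% (EE) and 0% (LL). The short-range and mitotic-band shares chose the members, so their small values between libraries are limited by the selection. How much of the loop spread within libraries is counting error was not tested. For the remaining folding features, from 2.03% (cis compartment score) to 12.8% (alignment) of the variance lay between libraries.

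Larger shares lay between libraries for technical features. Between-library variance was 71.5% for the duplicated share of fragment ends, 67.5% for the share without digestion and 42.4% for contacts per cell. Contacts thus still varied mostly within libraries, and chromosome coverage deviation was at 0%. The replication score came after contacts, at 32.1%. Its library means were 1.13 in library 13, 1.12 in library 11 and 1.09 in library 32_33, and from 1.05 to 1.08 in the other 7 libraries, against an SD of 0.0321 between cells within libraries.

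**Figure D2:**
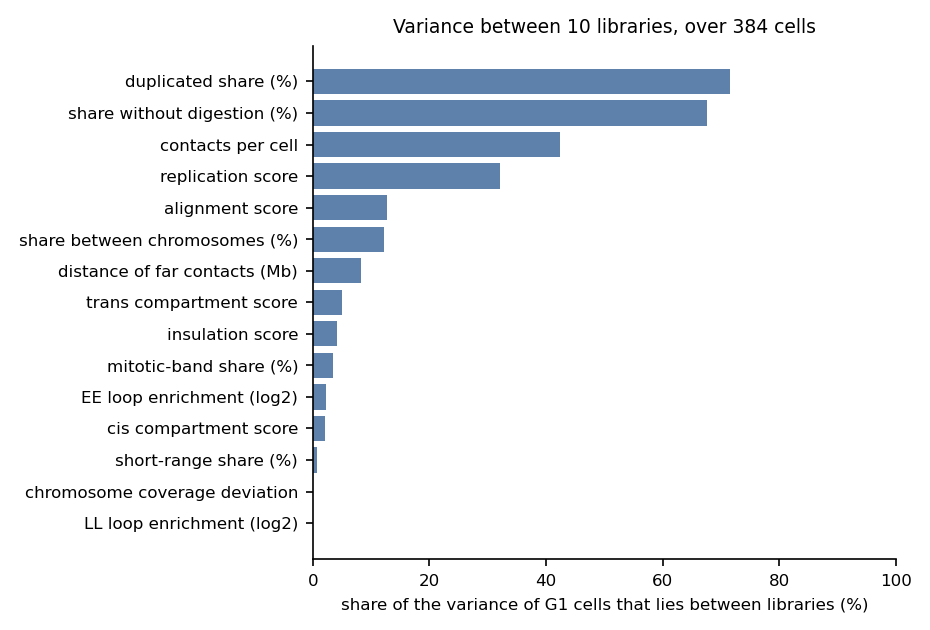
Share of the variance of G1 cells that lies between libraries, in percent, as 1 bar per feature, over 384 cells in 10 libraries. Duplicated share (71.5%), share without digestion (67.5%), contacts (42.4%) and replication score (32.1%) have the longest bars, and no folding feature is above 12.8%.

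Along the authors' order, G1 cells mixed more with other chromosomes, lost alignment and gained insulation and compartment contrast. From the first to the last of 10 equal parts of the order (40 or 41 cells each), the share between chromosomes went from 3.68% ± 1.20 (SD over cells) to 7.29% ± 2.51. Alignment went from 0.390 ± 0.0634 to 0.107 ± 0.0602, so that the bars of the first and last parts do not touch. Insulation went from 2.27 ± 0.143 to 2.56 ± 0.158. In the same span the mitotic-band share went from 23.2% to 13.5%, the short-range share from 46.5% to 61.4% and the far distance from 18.3 to 35.1 Mb. The last pair changed by construction, and the mitotic-band share is tied to both of them, so its fall is no separate result.

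The features did not change at the same part of the order. The cis compartment score was 0.258 in the first part, 0.312 in the second and 0.348 in the fourth, and from there it stayed between 0.344 and 0.360. Insulation took its largest step between the first and second parts, from 2.27 to 2.41, and reached 2.56 in small steps. Alignment did the opposite, with 0.276 in the seventh part, 0.226 in the eighth, 0.193 in the ninth and 0.107 in the last. The trans compartment score went from 0.143 to 0.252 over all 10 parts. Insulation and the cis compartment score thus took most of their change in the first 4 parts, and alignment most of its change in the last 4. The short-range share, part of the order, went from 46.5% to 56.3% over the first 4 parts and was 61.4% in the last. Far distance, the other part, was 27.9 Mb in the seventh part and 35.1 Mb in the last. Within libraries, alignment moved with far distance (median rho -0.75) and insulation and the cis compartment score with the short-range share (0.47 and 0.44). The early and late changes cannot be told apart from how the order was built.

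**Figure D3:**
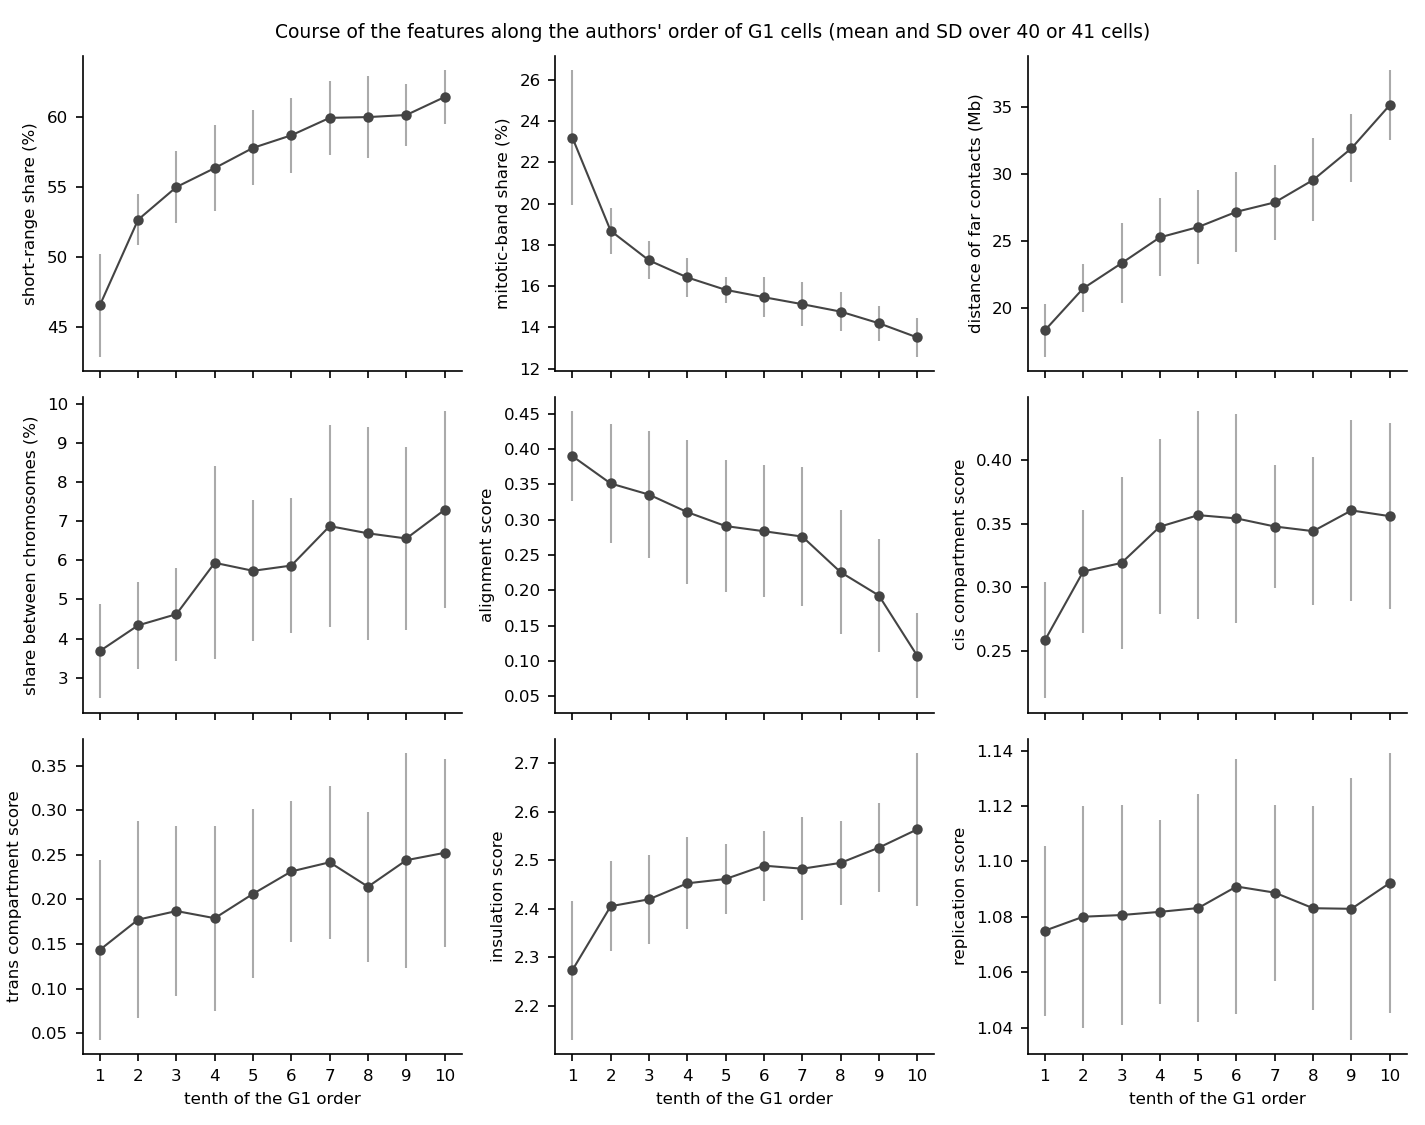
Mean of 9 features in 10 equal parts of the authors' order of G1 cells; points are means over 40 or 41 cells and bars are 1 SD over cells, with vertical axes that do not start at 0. The cis compartment score flattens from the fourth part at about 0.35, while alignment goes from 0.276 to 0.107 over the last 4 parts and the replication score stays between 1.075 and 1.092.

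The direction along the order was also looked at in single libraries, where the shape of the course was not. In the 6 libraries with at least 20 G1 cells (11, 12, 13, 2_14, 19 and 20), Spearman's rho to the order had a median of -0.66 for alignment (-0.73 to -0.53), 0.52 for insulation (0.22 to 0.68) and 0.51 for the share between chromosomes (0.19 to 0.62), with the same sign in 6 of 6. The cis compartment score had a median of 0.30 (0.22 to 0.34) and the trans compartment score of 0.32 (0.083 to 0.50), positive in 6 of 6. These values are descriptions over the cells of a library, since all features of a cell come from the same contacts. With contacts per cell held constant (partial rho) the medians were -0.64, 0.55 and 0.52 for alignment, insulation and the share between chromosomes.

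Loops and the replication score did not keep 1 sign in 6 of 6 libraries. The median rho was 0.028 for EE loops (-0.26 to 0.20) and 0.12 for LL loops (-0.17 to 0.51), each positive in 5 of 6. For the replication score it was 0.051, positive in 4 and negative in 2 libraries. Over the 54 pooled NoSort cells rho was -0.099 for EE loops, -0.075 for LL loops and 0.33 for the replication score. In the 10 parts of the order the mean replication score lay between 1.075 and 1.092. Library 12 had the highest rho of LL loops (0.51) and library 11 the lowest rho of EE loops (-0.26).

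In all 10 libraries, the smallest included, the last of 3 equal parts of a library's own order was above the first part in the share between chromosomes (by 1.96 points ± 0.967, SD over libraries), in insulation (by 0.130 ± 0.0950) and in the cis compartment score (by 0.0700 ± 0.0300). Alignment was lower in 10 of 10 libraries, with a mean difference of -0.146 ± 0.0645. The trans compartment score was higher in 8 of 10.

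**Figure D4:**
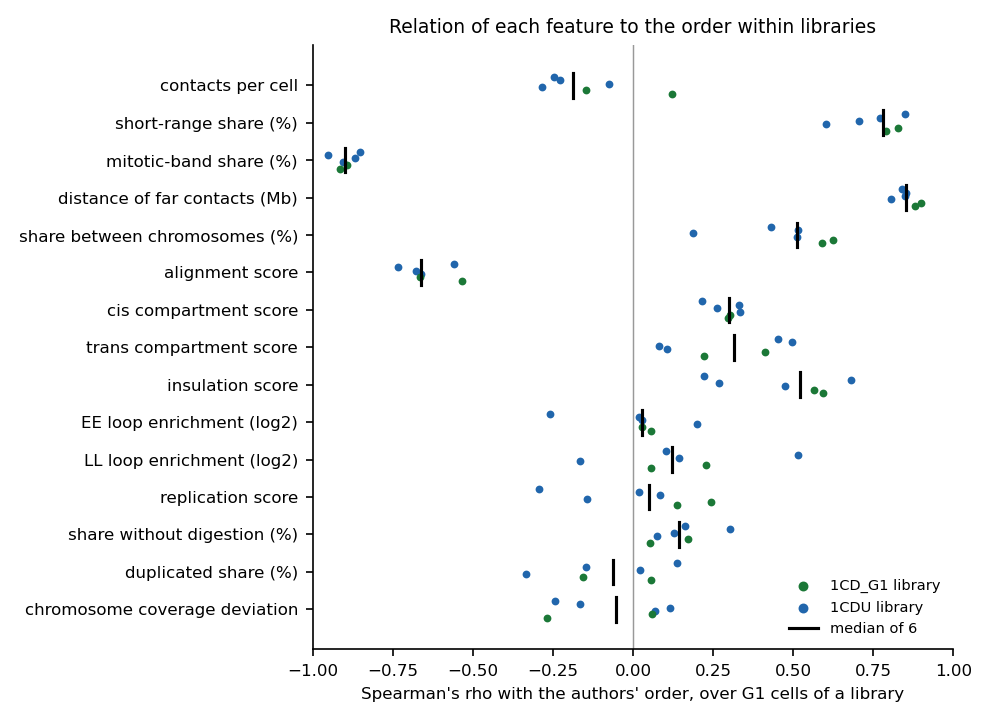
Spearman's rho of each feature with the authors' order over the G1 cells of a library, with 1 point per library (6 libraries with at least 20 G1 cells) and a line at the median. Short-range share and far distance built the order; alignment (median -0.66), insulation (0.52) and share between chromosomes (0.51) keep 1 sign in 6 of 6 libraries, and loops and replication score lie around 0.

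The borders of G1 in the order differed in kind. The 29 post-M cells, before G1, had a mean insulation of 1.66 and a far distance of 11.5 Mb. Their cis compartment score was 0.182, with 2.25% of contacts between chromosomes. The first 40 G1 cells were at 2.27, 18.3 Mb, 0.257 and 3.66%. Alignment was 0.337 in post-M and 0.388 in the first G1 cells, so alignment was lower in post-M cells than at the start of G1.

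At the other end, the last 40 G1 cells and the first 40 early-S cells had the same insulation, 2.56 in both. They differed in far distance (35.1 against 30.8 Mb), alignment (0.107 against 0.211) and cis compartment score (0.356 against 0.409), while the replication score was 1.09 in the last G1 and 1.06 in the first early-S cells. The first early-S cells were low for their group, whose median score was 1.19, and the order of early-S cells was not recomputed. That order may have placed low scores first, so these means cannot show whether the score changes at the border. Since the far distance entered the G1 order, its high value at the end of G1 is part of the construction. Alignment fell with far distance within libraries (median rho -0.75), so its low value there cannot be told apart from that construction.

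Between pairs of features, the strongest relation over G1 cells that did not involve a technical measure or the band shares joined far distance and alignment (median rho -0.75 over 6 libraries, -0.91 to -0.69). Cells with more contacts between chromosomes had higher insulation (median 0.56, 0.31 to 0.60) and a higher cis compartment score (0.32, 0.012 to 0.60). Cis compartment score and insulation were related with a median rho of 0.39 (0.26 to 0.65), and the compartment scores in cis and in trans with only 0.22, positive in 5 of 6 libraries. Among technical measures, contacts per cell rose with the duplicated share (0.84, 0.56 to 0.98) and fell with the share without digestion (-0.47, -0.73 to -0.27).

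Between the conditions, G1 cells of NoSort libraries had the longest far distance, the lowest alignment and the highest insulation, and cells of the G1 gate had the opposite, yet no feature passed the test after correction. Mean far distances were 25.7 and 25.5 Mb in libraries 19 and 20 of the G1 gate. In 1CDU they were 26.2, 26.2, 27.7 and 28.8 Mb (libraries 11, 12, 13 and 2_14). In NoSort they were 30.4, 28.5, 31.4 and 28.1 Mb (libraries 28_29, 30_31, 32_33 and 34_35). The G1 gate lay below every other library, and the lowest NoSort libraries overlapped the highest 1CDU library. The condition means were 25.6 Mb ± 0.179 (SD, n = 2), 27.2 Mb ± 1.28 (n = 4) and 29.6 Mb ± 1.55 (n = 4), with an exact permutation p of 0.0311 (adjusted 0.0924).

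Alignment was 0.282 and 0.324 in the libraries of the G1 gate, 0.239 to 0.285 in 1CDU, and 0.193, 0.253, 0.145 and 0.238 in NoSort. The means were 0.303 ± 0.0296, 0.256 ± 0.0209 and 0.207 ± 0.0486 (exact permutation p = 0.0356, adjusted 0.0924). Each NoSort library lay below both G1-gate libraries, and 1CDU overlapped both conditions.

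Insulation was 2.445 and 2.439 in the G1 gate, 2.443 to 2.495 in 1CDU and 2.477 to 2.552 in NoSort. The condition means of 2.44, 2.47 and 2.51 had an exact permutation p of 0.0470 (adjusted 0.102). All 4 NoSort libraries were above both G1-gate libraries, by 0.0710 on average, which is less than the SD of 0.121 between cells of a library.

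Compartments and loops differed less. The cis compartment score was 0.328 ± 0.00717 in the G1 gate, 0.354 ± 0.00951 in 1CDU and 0.328 ± 0.0199 in NoSort (exact permutation p = 0.0787, adjusted 0.146), and the 4 libraries of 1CDU were all above the G1 gate. In trans it was 0.195, 0.230 and 0.229 (adjusted exact permutation p = 0.467). LL enrichment was 1.00, 0.96 and 1.03 and EE enrichment 0.71, 0.76 and 0.81 (adjusted exact permutation p = 0.318 and 0.569). Loop enrichment was lower in cells with more contacts, and the part of depth in these means was not tested. The share between chromosomes was 5.34%, 6.52% and 5.62% (adjusted exact permutation p = 0.467), with library 11 highest at 8.24% and library 30_31 lowest at 4.30%. The replication score was 1.08, 1.10 and 1.07 (adjusted exact permutation p = 0.297). The short-range share was 56.5%, 57.8% and 56.7% and the mitotic-band share 16.8%, 15.6% and 16.4%, which the grouping limits.

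Technical measures moved with the conditions. Contacts per cell were 180815 and 246571 in the libraries of the G1 gate, 80986 to 143384 in 1CDU and 89704 to 126591 in NoSort (exact permutation p = 0.0133, adjusted 0.0867). The share without digestion was 34.6% and 35.9% in the G1 gate, 25.7% to 40.0% in 1CDU and 46.5% to 49.7% in NoSort (exact permutation p = 0.00952, adjusted 0.0867), so NoSort lay above every other library. The duplicated share was 3.11%, 1.99% and 4.93% (exact permutation p = 0.0330, adjusted 0.0924). With the folding features adjusted for contacts by the slope within libraries, NoSort stayed highest and the G1 gate lowest in far distance and insulation, and 0 of the features passed.

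Across the 13 features tested, 0 passed an adjusted p of 0.05 over the 3 conditions (0%), and 6 had an unadjusted exact permutation p under 0.05: contacts, far distance, alignment, insulation, share without digestion and duplicated share. The smallest p the design allows is 0.000635. Of 39 pairwise comparisons 0 passed (0%), and 2 had an unadjusted p under 0.05, the share without digestion and the duplicated share of 1CDU against NoSort. Pairwise exact permutation tests cannot go below 0.0667 with 2 against 4 libraries or 0.0286 with 4 against 4. With these floors no pair could reach an adjusted p of 0.05, so the 0 of 39 was fixed by the design. Libraries did not overlap in 7 of 13 features between the G1 gate and NoSort (53.8%), in 5 between the G1 gate and 1CDU (38.5%) and in 2 between 1CDU and NoSort (15.4%). With medians over cells in place of means, contacts, far distance, alignment and the share without digestion passed (adjusted exact permutation p = 0.0433). Without library 11 of 1CDU, contacts and the share without digestion passed (adjusted exact permutation p = 0.0310 and 0.0103).

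**Figure D5:**
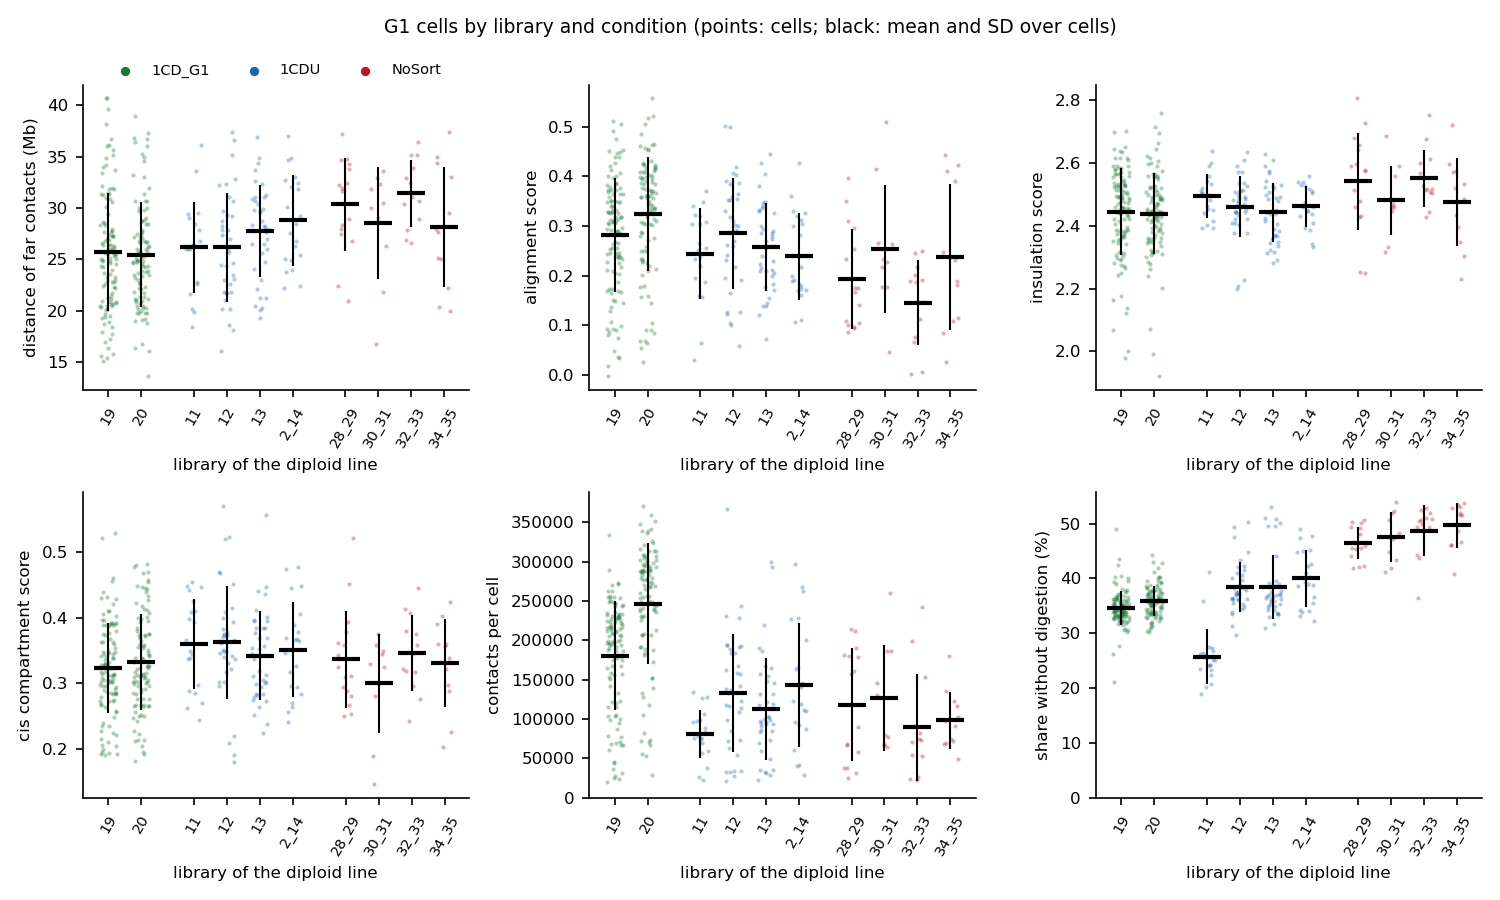
Far distance (Mb), alignment, insulation, cis compartment score, contacts per cell and share without digestion (%) of G1 cells by library and condition; points are cells, black bars the mean and SD over the cells of a library, and the axes of the upper row and of the compartment score do not start at 0. Library means of far distance lie at 25.5 and 25.7 Mb in the G1 gate and from 28.1 to 31.4 Mb in NoSort, within a far wider spread of cells.

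Pooled over libraries, cells of the conditions also stood at different places of the G1 order. The median place of 404 was 171 for the G1 gate, 223.5 for 1CDU and 259 for NoSort. By library it was 158 and 194.5 in the G1 gate (19 and 20), 211.5 to 227 in 1CDU, and 292.5, 212, 275 and 209.5 in NoSort (28_29, 30_31, 32_33 and 34_35). Libraries 28_29 and 32_33 thus stood later than every 1CDU library, and 30_31 and 34_35 did not. Of the pooled NoSort cells 35.2% lay in the last of 5 equal parts of the order, against 22.4% of 1CDU and 14.9% of G1-gate cells. In the first part lay 13%, 12.9% and 24.4%. Far distance is part of the order, so its difference and the difference in place are one measurement seen from 2 sides.

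Within a part of the order, far distance and short-range share trade off by construction, so values at a matched place are given as a description only. In the first of 5 parts, far distance was 20.5 Mb in NoSort, 21 Mb in 1CDU and 19.5 Mb in the G1 gate, and in the second it was 26.4, 24 and 24.1 Mb. In the third it was 30.2, 26 and 26.2 Mb, with the short-range share at 55.1%, 58.6% and 58.7%, and in the fourth 29.7, 28.7 and 28.5 Mb. In the last part the 3 conditions lay between 33.1 and 34.1 Mb. NoSort was thus longest in 4 of 5 parts, by the most in the third, where its short-range share was the lowest of the 3 conditions.

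Alignment, which is not in the sum that built the order, was 0.380 in NoSort, 0.336 in 1CDU and 0.379 in the G1 gate in the first part. It was 0.279, 0.316 and 0.333 in the second part, 0.176, 0.295 and 0.308 in the third, 0.191, 0.235 and 0.273 in the fourth and 0.129, 0.160 and 0.155 in the last. NoSort was lowest in the parts after the first. These parts hold 7 to 19 NoSort cells, pooled over libraries, and no test was made. The part of far distance, contacts, digestion and duplication in these differences was not tested.

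Cell-to-cell spread within a library was tested in the same way, and 0 of 13 features passed (0%), with an unadjusted exact permutation p under 0.05 for 3. The SD of insulation was 0.134 in the G1 gate, 0.0814 in 1CDU and 0.124 in NoSort (exact permutation p = 0.0425, adjusted 0.184). By library it was 0.138 and 0.130 in the G1 gate, 0.0698, 0.0982, 0.0929 and 0.0648 in 1CDU, and 0.155, 0.111, 0.0906 and 0.140 in NoSort. Each 1CDU library was thus tighter than both libraries of the G1 gate. EE loops (adjusted exact permutation p = 0.184) had the lowest mean spread in the G1 gate, SD 0.30 and 0.36, where contacts per cell were highest, with library 13 of 1CDU at 0.35. The share without digestion had the same adjusted value, and its relative spread was largest in 1CDU.

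Against early-S cells of the same 10 libraries, G1 cells varied more in some features and less in others, which is a description because the groups were cut from band shares. The median SD of far distance was 4.82 Mb in G1 and 3.12 Mb in early S, larger in G1 in 9 of 10 libraries. For the share between chromosomes it was 2.10 and 1.51 points, larger in 9 of 10, and for alignment 0.107 and 0.0834, larger in 8. The replication score went the other way, 0.0297 in G1 against 0.0888, with a larger SD in G1 in 1 library. So did insulation, 0.104 against 0.138, larger in G1 in 2.

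The 13 G1 cells from later gates were spread over the order. The 3 cells of the late S/G2 gate stood at places 2, 16 and 67, among the earliest G1 cells. The 6 mid-S cells ran from place 29 to 386 and the 4 early-S cells from 140 to 368. The cell at place 386, from library 24 of the mid-S gate, held the lowest insulation (1.82), the highest replication score (1.29) and the most contacts (422541) of all G1 cells, with 14.6% of contacts between chromosomes.

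G1 cells of the diploid 2i table were set against G1 cells of the diploid line in serum on feeders (146 cells, 7 libraries with at least 10) and of the haploid line H129-1 (324 cells, 9 such libraries), for the 5 features whose unit the tables share. In serum, feeder cells were removed and Oct-3/4-positive cells sorted, so medium and handling cannot be told apart, and haploid cells came from either medium. Far distance was longer in 2i than in serum, 27.9 Mb ± 2.01 (SD, n = 10) against 23.4 Mb ± 1.12 (n = 7). The lowest 2i library, at 25.5 Mb, was above the highest serum library, at 24.3 Mb (exact permutation p = 0.000206, adjusted 0.000857). In library 2_14, which joins a separate batch for each medium, the means were 28.8 Mb in 2i and 24.3 Mb in serum. Medium and batch cannot be told apart within that library.

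Depth moved with the medium. G1 cells in 2i held 133149 ± 49123 contacts against 275752 ± 59911 in serum (adjusted exact permutation p = 0.000857), and a higher share without digestion, 40.6% against 31.7% (adjusted exact permutation p = 0.0193). The share between chromosomes was 5.93% ± 1.10 against 5.47% ± 0.477 (adjusted exact permutation p = 0.390) and the duplicated share 3.39% against 2.70% (also 0.390). Thus 3 of 5 features passed (60%), 2 of them technical, and the part of depth in the far distance was not tested.

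Mean far distances were 27.7 Mb ± 2.70 (n = 9) in haploid and 27.9 Mb ± 2.01 (n = 10) in diploid 2i G1 cells. The difference did not pass (exact permutation p = 0.922). The haploid share between chromosomes was 6.58% ± 1.64 (adjusted exact permutation p = 0.390). The duplicated share (0.940% against 3.39% in 2i, adjusted exact permutation p = 0.000433) and the share without digestion (29% against 40.6%, adjusted exact permutation p = 0.00373) passed, 2 of 5 (40%). Contacts per cell, 91172 against 133149, had an adjusted exact permutation p of 0.0556, which fell below the threshold when library 11, 32_33 or 34_35 of the 2i cells (0.0254, 0.0334 and 0.0418) or haploid library 20 (0.0204) was left out.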

How the data were processed

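Contacts of single cells had been mapped with Bowtie2 to mm9, per the submitters' processing notes. The deposited features table gives, per the file headers, a count of contacts per cell, each share as a fraction (printed in percent), the far distance in bp (shown in Mb), scores, and the authors' order, group and condition. Definitions of the deposited scores, band limits and denominators are not given in the sources used here, and the loop enrichments were deposited as log2 values, as read from their range. The deposited cell list tied batch numbers to libraries, and the title did so for library 27. The members and lists were chosen with earlier results of these data known.

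Cells that passed quality control in group G1 were averaged within libraries holding at least 10 of them. Conditions were compared over library means (F statistic), in pairs, and over within-library spreads (SD, or the coefficient of variation for counts and shares) with two-sided exact permutation tests and Benjamini-Hochberg correction over 13, 39 and 13 values, and tables over 10. The near and mitotic shares chose the group and were not tested. Between-library variance is a one-way component. No gene has values here, so the rule was that each feature is reported, and cell type markers did not apply. Intervals cover counting error only, and a count of 0 allows up to 3 cells of the total. Contacts per cell and the 2 to 4 libraries per condition limit the precision.

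Alternatives were minimums of 5 and 20 cells, medians, the middle of contacts (25th to 75th percentile) or of the order, means within 3 parts of the order, the interquartile range, 2i without the G1 gate, 10 bins for 5, partial correlation and leaving out each library. Added after the data were seen were a minimum of 3 cells, batches with at least 4 cells as the unit, adjustment for contacts, at least 5 cells in the percentile range, library 2_14 left out of both media, and differences between parts of the order. On simulated data the condition test called 95.3% of features shifted by 4 SD of the library means, 6% at 2 SD, and 0 and 2.67% of unchanged ones (300 features, 150 shifted); serum and haploid comparisons called 96% and 98% at 2 SD. The scripts ran under Python 3.11.15, with scipy 1.17.1, numpy 2.4.6 and pandas 2.3.3, and figures were drawn with matplotlib 3.10.9.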

Additional observations from a re-analysis of the deposited data

Results flagged for a closer look

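In groups of 4 to 10 libraries, the highest or lowest library was set against the gap to its nearest neighbour (Dixon's test, 95% level). Of 70 groups 6 stood out, and chance gives about 1 in 20. All but 1 concern 1CDU. Library 11 had the lowest share without digestion, 25.7%, with the next library at 38.5%, and the least relative spread of contacts per cell, a coefficient of variation of 38.3% with the next at 54.8%. Library 12 had the largest SD of far distance, 5.27 Mb (next 4.44 Mb), and of alignment, 0.112 (next 0.0916). Library 13 had the largest relative spread of the share between chromosomes, 38.7% (next 24.6%). In haploid G1 cells, library 7 had the highest share without digestion, 38.7% (next 31.4%).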

How the results depend on the processing

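Over the 3 conditions the number of features that passed was 0, and it became 4 with medians (contacts, far distance, alignment, share without digestion), 4 with means within 3 parts of the order (contacts, far distance, share without digestion, duplicated share, of which far distance is part of the order itself and its call there supports nothing), 5 with a minimum of 3 cells (contacts, far distance, alignment, share without digestion, duplicated share) and 2 with batches as the unit (contacts, share without digestion). Leaving out 1 library in turn gave 0 to 2, the 2 being contacts and the share without digestion without library 11 of 1CDU. The cause was not tested. Other alternatives gave 0. Far distance, alignment and insulation kept the same highest and lowest condition in 17 of 17 alternatives, with adjusted p from 0.0250 to 0.328, 0.0250 to 0.330 and 0.0612 to 0.264. A minimum of 20 cells, the middle of contacts and the middle of the order left no NoSort library with enough cells, so the test over 3 conditions was not run there. Pairwise and spread tests gave 0 in each alternative run. Where the G1 gate had 1 or 2 libraries, no pair could have passed after correction, so the 0 of the pairwise tests says nothing there. The comparison of tables gave 5 calls of 10 and 5 or 6 under the alternatives, the sixth being contacts against haploid cells (adjusted p = 0.00828 with a minimum of 5 cells). No direction reversed. No paired analysis was possible because the conditions share no library numbers. Loop values were higher and spread more among cells with fewer contacts, a split that also moves with condition. The G1 gate has only 2 libraries.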

Other observations

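In G1 cells of library 11, the library with the fewest contacts per cell (80986 on average) and the lowest share without digestion (25.7%), the share between chromosomes was the highest of the 10 libraries (8.24%) and the insulation (2.495) the highest of 1CDU. The 4 G1 cells of library 15_16_17_18, which holds cells of several gates, had a median of 230954 contacts, above the median of library 19 (199393) and below that of library 20 (269227).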
